A study of Mus musculus with 2 samples.

Results

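The colony-stimulating factors and their receptors were described as 8 genes out of the 32285 in the count tables. The list held 4 ligands, *Csf1*, *Il34*, *Csf2* and *Csf3*, and 4 receptor chains, *Csf1r*, *Csf2ra*, *Csf2rb* and *Csf3r*, matched by symbol. In GRCm38 *Csf1* lies at chr3:107741048-107760469, *Il34* at chr8:110741829-110805924, *Csf2* at chr11:54247271-54249667, *Csf3* at chr11:98701263-98703629, *Csf2ra* at chr19:61223957-61228429, *Csf2rb* at chr15:78325752-78353847, *Csf3r* at chr4:126024550-126044440 and *Csf1r* on chromosome 18. The counts came from single-cell RNA sequencing of tumors of MC38, a mouse colon cancer line that was injected under the skin of C57BL/6 mice. The same tumor line was used in both groups, which were set by host genotype. Genotype could not be told apart from mouse, tumor or preparation of the library, and the paper reports smaller tumors in the knockout hosts. One library came from *Lmo7*+/+ hosts, the wild-type library, and 1 from hosts with a global knockout of *Lmo7* (*Lmo7*-/-), the knockout library, in female mice on the same background. Tumors were dissociated, red blood cells were lysed, and live cells were sorted without selection for a cell type. With 1 library per genotype there were no replicates, no test between genotypes was possible, and how many mice stood behind a library is not given in the sources used here. All intervals below are 95% intervals for counting error only and do not cover variation between mice.

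Colony-stimulating factors are secreted proteins that keep myeloid cells alive and drive their growth and differentiation. CSF-1 and IL-34 share 1 receptor, the tyrosine kinase CSF1R, on which most tissue macrophages depend. GM-CSF, the product of *Csf2*, acts through a private alpha chain (*Csf2ra*) and the beta common chain (*Csf2rb*), which IL-3 and IL-5 receptors also use, and which signals through JAK2 and STAT5. G-CSF, the product of *Csf3*, acts through the receptor encoded by *Csf3r*, the main receptor for neutrophil production. Tumors are well known as sources of CSF-1, GM-CSF and G-CSF, which is why these ligands are followed in tumor and stromal cells and their receptors in myeloid cells.

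After cells with few genes, few UMIs or many mitochondrial UMIs were removed, 13542 wild-type and 11860 knockout library cells remained, with a median of 4535.5 and 4304.5 UMIs per cell. A UMI marks 1 captured RNA molecule. Cells were clustered without the 8 genes, and clusters took a class from marker genes. The classes were tumor cell-like (6352 and 4550 cells in the wild-type and the knockout library), fibroblast-like (127 and 96), endothelial-like (97 and 73), macrophage-like (3108 and 3610), M-MDSC-like, that is monocytes or monocytic myeloid-derived suppressor cells (1316 and 1214), dendritic-like (321 and 209), T-like (437 and 613), NK-like (74 and 51) and mast-like (7 and 21). A cluster led by *Enpp2*, *Serpine2* and collagen genes shared the tumor cells' profile of gene levels along the chromosomes. Of it 576 cells took the tumor cell-like name, and the other 882 and 742 cells are given apart under those leading genes. The largest part of this group (234 and 537 cells) was itself led by *Zdhhc2* and *Il1rl1*. Its fibroblast marker sum was 1333 CPM, against 5472 to 12000 CPM in the other parts. A further 821 and 681 cells stayed unnamed. The M-MDSC-like class was named as a whole. Of its 2530 cells a cluster of 927 scored highest for macrophages by its own markers (macrophage marker sum 13310 CPM). A cluster of 345 took no name by its own markers and a cluster of 13 carried neutrophil genes. Other classes named as a whole also held clusters without a name by their own markers. Among fibroblast-like cells these had 17 cells and 22 cells, the latter with a score of 0.715 for the tumor profile along the chromosomes, where 0.4 or more counted as mixed. Among macrophage-like cells they had 1338, 454 and 222 cells, and among tumor cell-like cells 1153 and 296. Every host class had all of its markers at 5 CPM or more (UMIs of a gene per 1000000 UMIs of the class), but the tumor cell-like class reached that level for 5 of its 14 markers, and its name rests on gene levels along the chromosomes, and the summed level of those 14 markers was higher in fibroblast-like cells (1050.75 CPM) than in tumor cell-like cells (410.1 and 477 CPM). *Lmo7* itself did not check the labels, since host classes together held 40 and 33 *Lmo7* UMIs (1.46 and 1.24 CPM, log2 ratio -0.23, interval -0.94 to 0.47). The libraries shared 175 cell barcodes among the kept cells.

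Ligand and receptor RNA lay in different cells. Tumor cell-like cells held 82.0% of all *Csf1* UMIs in the wild-type library and 77.6% in the knockout library, 81.1% and 78.9% of the *Csf2* UMIs and 80.0% and 73.2% of the *Il34* UMIs. Macrophage-like cells held 66.1% and 69.6% of the *Csf1r* UMIs, 59.9% and 64.7% of the *Csf2ra* UMIs, and M-MDSC-like cells added 21.9% and 19.7% of *Csf1r* and 24.98% and 21.8% of *Csf2ra*. *Csf3* UMIs were the most mixed, with 63.8% and 49.0% in tumor cell-like, 19.6% and 1.96% in endothelial-like and 0% and 26.1% in fibroblast-like cells. These shares depend on how many cells of each class were sorted, so levels in CPM are given next. Levels are compared between classes for 1 gene at a time, because UMI counts from transcript ends give no level per length between genes.

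**Figure D1:**
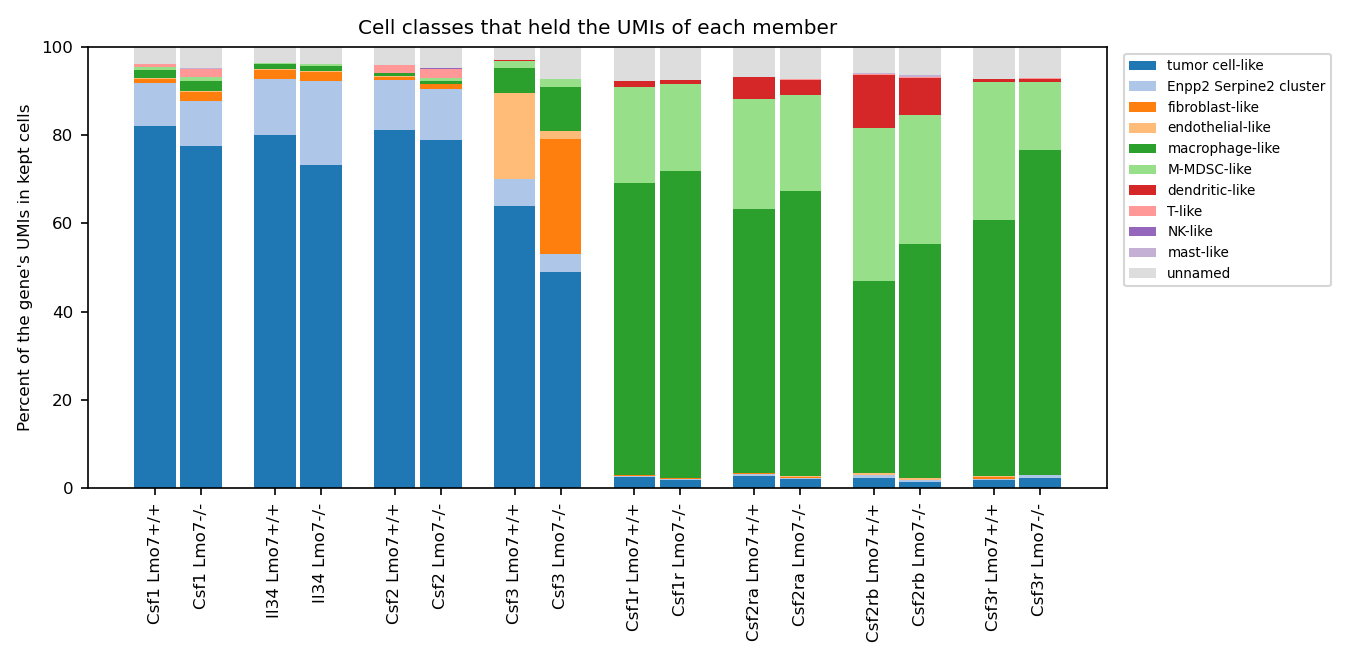
Share of the UMIs of each gene that came from each cell class (y axis, percent of the UMIs in kept cells of a library, stacked colours), with 1 bar per gene and library (x axis). Tumor cell-like cells fill 73.2% to 82.0% of the bars of *Csf1*, *Il34* and *Csf2*, and macrophage-like and M-MDSC-like cells fill most of the bars of the 4 receptor genes.

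*Csf1*, which encodes the main growth factor of macrophages, was highest, among the classes, in mesenchymal and tumor cells. Fibroblast-like cells held 252 CPM in the wild-type library (interval 215 to 294) and 341 CPM in the knockout library (294 to 393). Tumor cell-like cells held 265 CPM (261 to 269) and 201 CPM (197 to 206), and the *Enpp2* *Serpine2* cells 220.1 and 123 CPM. These 3 classes overlapped across libraries and could not be ordered. T-like cells came next with 83.5 and 99.7 CPM, level with endothelial-like cells at 108 and 55.9 CPM, while macrophage-like (17.5 and 12.2 CPM), M-MDSC-like (18.6 and 16.3 CPM) and dendritic-like cells (12.3 and 11.8 CPM) lay several-fold lower. Over both libraries the macrophage-like level was 14.8 CPM, against 293 CPM in fibroblast-like cells (5.07%) and 239 CPM in tumor cell-like cells. In macrophage-like cells 4 tumor markers measured in both places stood at a median of 5.47% of their tumor cell-like level (4.31% to 16.8%). The 5.07% and the 5.47% refer to different classes and are not to be compared. The part of free or engulfed tumor RNA in the myeloid *Csf1* counts was not tested.

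Among T-like cells *Csf1* was highest in the *Gzmf*, *Cd8a* and *Cd3g* led cluster of 470 cells, at 136 CPM, against 64.0 CPM in a *Gzmb*, *Nrgn* and *Cd8a* led cluster, 78.2 CPM in the *Foxp3* and *Il2ra* led cluster and 70.7 CPM in the *Il17a* and *Tnfsf11* led cluster. Cells were thinned to 1500 UMIs for shares, without those that had fewer (107 and 165 T-like cells, with 330 and 448 remaining, and 972 and 695 tumor cell-like cells). Of the remaining T-like cells 12.1% and 15.8% had a *Csf1* UMI, between 29.1% and 24.1% of tumor cell-like cells and 2.76% and 1.90% of macrophage-like cells. Without thinning the T-like shares were 18.99% and 19.7% and the macrophage-like shares 7.43% and 4.27%. Before thinning T-like cells were shallower (median 2209 and 2157 UMIs) than tumor cell-like (5120.5 and 5183.5) and macrophage-like cells (5052 and 4297 UMIs). Thinning put the remaining cells at the same depth. The 14 tumor markers summed to 25.5 and 25.8 CPM in T-like cells and to 30.3 and 23.3 CPM in macrophage-like cells. The part of tumor RNA in the T-like *Csf1* counts was not tested. Mast-like cells gave 136 and 232 CPM on 4 and 13 counts.

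Within the tumor cell-like class *Csf1* ran from 46.7 to 323 CPM across 16 clusters. It was highest in clusters led by *Cd248*, *Ndufa4l2* and *Krt14* (323 CPM), by the nuclear RNAs *Kcnq1ot1* and *Malat1* (319 CPM), by *Krt19*, *Krt8* and *Krt18* (316 CPM) and by *Cdc6*, *Csf2* and *Mmp10* (315 CPM). The lowest cluster was led by *H19* and *Sox12*, and its neighbour in the order, led by *Ube2c*, *Plk1* and *Aurka*, held 48.3 CPM. *Csf1* was not uniform among MC38 cells, and the spread over clusters was larger than the difference between the libraries.

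In the knockout library *Csf1* was lower in tumor cell-like cells by 0.40 on the log2 scale (log2 ratio -0.40, interval -0.44 to -0.36), against a median of -0.03 over all 14005 genes measured there. The direction was the same in 16 of 16 tumor cell-like clusters, with log2 ratios from -0.61 to -0.06 and a median of -0.23. It was also the same in 4 of 4 clusters of the *Enpp2* *Serpine2* cells, from -0.57 to -0.23 with a median of -0.35. That whole group gave -0.84 (interval -0.96 to -0.73), below each of its clusters. Its cluster mix differed between the libraries, with 234 and 537 cells in the largest cluster and 399 and 109 in the next, and the part of this mix was not tested. The clusters come from the same 2 libraries and are not replicates. In fibroblast-like cells the ratio was 0.43 (0.12 to 0.74), but 47 of the 188 *Csf1* UMIs of the knockout library lay in 1 cell and without it the ratio was 0.07 (-0.26 to 0.41). In endothelial-like cells it was -0.95 (-1.72 to -0.22) on 53 and 23 counts, with intervals that covered 0 under a lenient (-0.61, -1.29 to 0.046) and a strict cell filter (-0.65, -1.45 to 0.11), and in T-like cells 0.25 (-0.10 to 0.62). In macrophage-like cells it was -0.53 (-0.79 to -0.27), with 3 of 7 measured clusters higher and 4 lower, and the clusters with the most *Csf1* there, 61.1 to 70.8 CPM, held tumor markers at a sum of 18.6 to 127 CPM against 30.3 and 23.3 CPM in the whole class.

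*Il34*, the second ligand of CSF1R, was also a mesenchymal and tumor gene. Fibroblast-like cells held 40.0 and 47.1 CPM on 26 counts in each library, *Enpp2* *Serpine2* cells 21.6 and 29.98 CPM and tumor cell-like cells 19.3 and 24.997 CPM. Endothelial-like cells held 6.10 and 9.71 CPM, and macrophage-like cells 0.752 and 0.745 CPM, which is 1.73% of the fibroblast-like level. Dendritic-like and NK-like cells had 0 *Il34* UMIs in both libraries, with an upper bound of 2.68 and 3.97 CPM in dendritic-like cells. The highest level of any cluster, 158 CPM, lay in 21 fibroblast-like cells led by *Rgs5*, *Notch3* and *Kcnj8*, markers of pericytes. It rests on few UMIs, since the whole fibroblast-like class held 26 in each library, with 7 of those of the knockout library in 1 cell. The highest of the tumor cell-like clusters, 47.7 CPM, lay in 576 cells led by *Enpp2* and *Tubb2b*.

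*Il34* and *Csf1* differed in opposite directions between the libraries in tumor cell-like cells. *Il34* was higher in the knockout library by 0.37 (0.25 to 0.50), in 13 of the 14 tumor cell-like clusters with at least 20 counts, and by 0.47 (0.18 to 0.76) in the *Enpp2* *Serpine2* cells. Of the measured clusters of that group 2 were higher and 1 lower, with ratios from -0.51 to 0.23, all below the whole-group value. In fibroblast-like cells the interval, -0.61 to 1.08, left the direction undetermined. After thinning, 2.73% of tumor cell-like cells of the wild-type library and 3.74% of the knockout library had an *Il34* UMI (13.4% and 15.8% without thinning).

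*Csf2*, encoding GM-CSF, was spread over 3 compartments. Tumor cell-like cells held 29.97 CPM (28.5 to 31.5) and 24.6 CPM (23.0 to 26.2), fibroblast-like cells 23.1 and 23.6 CPM on 15 and 13 counts, and T-like cells 27.8 and 13.2 CPM on 35 and 23 counts. Macrophage-like cells held 0.810 and 0.344 CPM, and M-MDSC-like cells 0 and 10 counts. The tumor cell-like and T-like levels therefore stood well above the myeloid background, while fibroblast-like, *Enpp2* *Serpine2* and T-like cells overlapped across libraries.

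*Csf2* was concentrated in few cells of each class. Tumor cell-like clusters ran from 1.90 to 76.2 CPM, highest in 257 cells led by the replication genes *Cdc6*, *Ung* and *Uhrf1* beside *Mmp10* and *Csf2* itself. In T-like cells 32 of 58 *Csf2* UMIs came from the 71 cells led by *Penk*, *Ccl1*, *Tnfsf11*, *Il17a* and *Cd4* (189 CPM), against 2.58 CPM in the *Gzmf* and *Cd8a* led cluster and 5.79 CPM in the *Foxp3* led cluster. These *Csf2* counts came from 15 of 437 and 12 of 613 T-like cells, with 12 counts in 1 cell of the wild-type library. In fibroblast-like cells the highest cluster was led by *Saa3*, *Pi16* and *Has1* (51.5 CPM). After thinning, *Csf2* UMIs were seen in 4.98% of *Csf1*-positive and 2.75% of *Csf1*-negative tumor cell-like cells of the wild-type library, and in 3.23% and 2.25% in the knockout library.

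*Csf2* was lower in the knockout library in tumor cell-like cells (-0.29, -0.40 to -0.17), where 5 of 12 measured clusters went up and 7 down, and in T-like cells (-1.08, -1.91 to -0.28). Removal of the 1 T-like cell with 12 counts moved the T-like ratio to -0.48, with an interval of -1.38 to 0.42 that left the direction undetermined. The tumor cell-like value moved to between -0.67 and -0.63 under other cell filters or without doublets.

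*Csf3*, encoding G-CSF, was the rarest ligand with 470 and 153 UMIs, and its sources differed between the libraries. Endothelial-like cells held 92 UMIs in 15 of 97 cells of the wild-type library (187 CPM, 151 to 229) and 3 UMIs in 2 of 73 cells of the knockout library (7.28 CPM, 1.502 to 21.3). Fibroblast-like cells held 0 UMIs in 127 cells of the wild-type library (upper bound 5.68 CPM) and 40 UMIs in 9 of 96 cells of the knockout library (72.5 CPM, 51.8 to 98.7). Tumor cell-like cells held 300 and 75 UMIs at 5.51 and 2.02 CPM. The libraries did not overlap by their counting intervals in any of the 3 classes, and the classes went in different directions.

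In endothelial-like cells 88 of 95 *Csf3* UMIs came from 1 cluster of 42 cells led by *Selp*, *Lrg1*, *Vwf* and *Ackr1*, markers of venules (499.8 CPM), and the other 128 cells, led by *Igfbp3*, *Plvap* and *Kdr*, held 9.62 CPM. One cell gave 38 of the 92 counts, and without it the endothelial-like log2 ratio was -3.96 (-6.28 to -2.34) instead of -4.68 (-6.99 to -3.09). Both libraries contributed to the *Selp* led cluster, with 19 and 23 cells. In tumor cell-like cells the ratio was -1.45 (-1.83 to -1.08), and *Csf3* was lower in all 6 clusters with at least 20 counts. The fibroblast-like counts lay mostly in the clusters led by *Saa3* and *Pi16* (48.3 CPM) and by *Serping1*, *Ccn2* and *Ccl11* (182 CPM), the same fibroblast-like clusters that carried *Csf2* at 51.5 and 23.7 CPM. The second of them, with 8 and 9 cells, held 23 of the 40 counts and also the high macrophage marker sum of 7583 CPM, whose part in the *Csf3* counts was not tested.

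**Figure D2:**
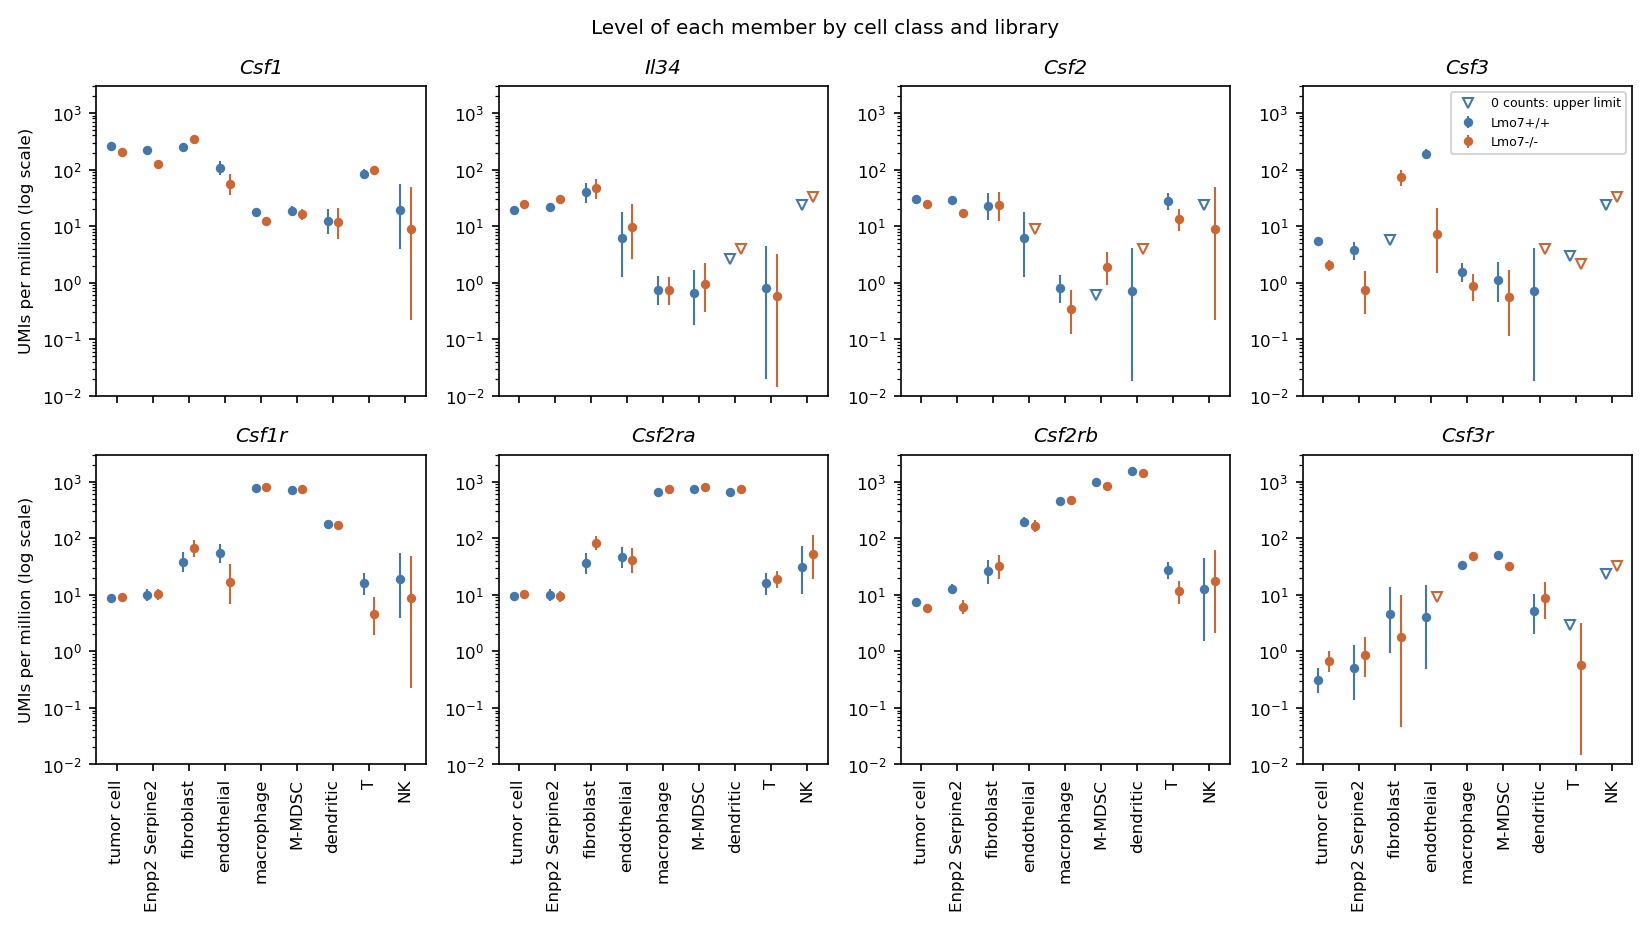
Level of each gene (y axis, CPM on a log scale) in 9 cell classes (x axis), with the *Lmo7*+/+ and the knockout library in different colours, bars for the exact Poisson 95% interval and open triangles for the upper bound where a class had 0 counts. The ligands stand highest on the left, in tumor and stromal classes, and the receptors in macrophage-like, M-MDSC-like and dendritic-like cells, where *Csf1r* reached 784 and 794 CPM in macrophage-like cells.

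*Csf1r*, the receptor for CSF-1 and IL-34, was a gene of macrophages and monocytes at nearly the same level in both libraries. Macrophage-like cells held 784 CPM (770 to 797) and 794 CPM (781 to 808), and M-MDSC-like cells 727 and 733 CPM. Dendritic-like cells held 182 and 173 CPM. Each of these steps was larger than the difference between the libraries, but the order of the first pair turned with a more lenient cell filter (799 CPM in macrophage-like and 808 CPM in M-MDSC-like cells over both libraries). All other classes stayed at 67.0 CPM or lower in each library, with 8.94 and 9.11 CPM in tumor cell-like cells, or 1.14% of the macrophage-like level, where the 12 macrophage markers had a median of 1.02% of theirs.

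After thinning, 67.1% and 65.1% of macrophage-like cells and 65.3% and 65.1% of M-MDSC-like cells had a *Csf1r* UMI, against 1.99% and 1.82% of tumor cell-like cells at a similar median depth (5052 and 4297 UMIs in macrophage-like cells, 5120.5 and 5183.5 in tumor cell-like cells). Without thinning the macrophage-like shares were 89.99% and 87.7% and the tumor cell-like shares 6.52% and 6.15%. In the tumor cell-like class *Csf1r* was high only where macrophage markers were. The 3 clusters with 65.3 to 85.2 CPM of *Csf1r* held macrophage markers at a sum of 1534 to 2403 CPM, and the other 13 clusters, with 3.74 to 13.5 CPM, held 110 to 269 CPM. Among fibroblast-like cells the same held for 17 cells with 348 CPM of *Csf1r*, 387 CPM of *Csf2ra* and a macrophage marker sum of 7583 CPM, against 285 to 705 CPM in the other 4 clusters.

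Macrophage-like clusters ranged from 488 to 921 CPM of *Csf1r*. The *Ccl8*, *Apoe* and *Ms4a7* led cluster was highest (921 CPM), followed by the *Fcrls*, *Cx3cr1* and *Mrc1* led cluster (874 CPM), and a *Mmp12* and *Arg1* led cluster was lowest (488 CPM). Still higher levels, 1043 and 1252 CPM, lay in 85 and 54 unnamed cells led by *Folr2*, *F13a1*, *Cbr2* and *Lyve1*, genes known from resident tissue macrophages. Among dendritic-like cells *Csf1r* separated the clusters, with 30.7 CPM in the *Clec9a* and *Xcr1* led cluster of type 1 dendritic cells, 64.8 CPM in the *Ccr7* and *Ccl22* led mature cluster and 219.7 CPM in the largest cluster, led by *Plet1* and *Napsa*. A cluster of 27 dendritic-like cells at 476 CPM also carried a high macrophage marker sum.

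The log2 ratio of *Csf1r* between the libraries was 0.02 (-0.01 to 0.05) in macrophage-like cells, 0.01 (-0.05 to 0.07) in M-MDSC-like cells and -0.07 (-0.37 to 0.22) in dendritic-like cells. The median over all genes in macrophage-like cells was -0.12, and scaling by trimmed means (TMM), which sets that shift to about 0, moved the values of *Csf1r*, *Csf2ra* and *Csf2rb* there to 0.13, 0.29 and 0.19. Of the 11 macrophage-like clusters, *Csf1r* was higher in the knockout library in 5 and lower in 6. The *Csf1* ratio of tumor cell-like cells (-0.40) lies outside the counting intervals of *Csf1r* in macrophage-like and M-MDSC-like cells. The TMM value of 0.13 lies outside the macrophage-like interval as well. These intervals do not cover variation between mice or libraries, so they set no bound on a difference between the genotypes.

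*Csf2ra*, the GM-CSF alpha chain, stood at a similar level in all 3 myeloid classes. M-MDSC-like cells held 757 and 808 CPM, macrophage-like cells 649 and 734 CPM and dendritic-like cells 649 and 750.1 CPM, and macrophage-like and dendritic-like cells could not be ordered. Of the other classes with at least 50 cells in each library fibroblast-like cells came next, 11.8-fold below dendritic-like cells over both libraries. The highest clusters were the *Chil3* and *Plac8* led monocytes (936 CPM) and 52 unnamed cells led by *Retnla*, *Ear2* and *Lyz1* (1059 CPM). In the knockout library *Csf2ra* was higher by 0.18 (0.14 to 0.22) in macrophage-like cells, in 10 of 11 clusters, by 0.10 (0.04 to 0.16) in M-MDSC-like cells, in 4 of 5 clusters, and by 0.21 (0.06 to 0.35) in dendritic-like cells, in 3 of 5 clusters.

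*Csf2rb*, the beta common chain, was graded instead of level across the myeloid classes. Dendritic-like cells held 1549.9 CPM (1485 to 1617) and 1399 CPM (1324 to 1477), M-MDSC-like cells 989.9 and 854 CPM and macrophage-like cells 446 and 471 CPM, and each step was larger than the spread of the libraries. Mast-like cells, which respond to IL-3 through this chain, held 1159 and 1090.0 CPM on 34 and 61 counts. The largest dendritic-like cluster (*Plet1* and *Napsa*) reached 1776 CPM and the type 1 cluster 977 CPM, and the macrophage-like clusters ran from 282 CPM in the *Hspa1a*, *Rsad2* and *Ifit2* led cluster to 702 CPM in the *Arg1*, *Mmp12* and *Nos2* led cluster.

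Endothelial-like cells held 197 and 168 CPM of *Csf2rb* on 97 and 69 counts, 6.31-fold above fibroblast-like cells, the next class in the order. After thinning, 24.4% and 22.2% of endothelial-like cells had a *Csf2rb* UMI (43.3% and 41.1% without thinning), against 2.06% and 1.14% of tumor cell-like cells. *Csf2ra* stood at 46.8 and 41.3 CPM there, and the 12 macrophage markers summed to 553 and 741 CPM, with *Ms4a7* at 0 in the *Lmo7*+/+ and *Trem2* at 0 in the knockout library, and stood at a median of 3.08% of their macrophage-like level. The *Selp* and *Ackr1* led cluster that held the *Csf3* counts had the higher *Csf2rb* level, 346 CPM, against 144 CPM in the *Kdr* led cluster, while its macrophage marker sum was lower (443 against 686 CPM).

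In M-MDSC-like cells *Csf2rb* was lower in the knockout library by 0.21 (log2 ratio -0.21, -0.27 to -0.16), in 5 of 5 measured clusters, and in dendritic-like cells the ratio was -0.15 (-0.25 to -0.05), with 4 of 5 clusters lower. In macrophage-like cells it was 0.08 (0.03 to 0.12), with 6 clusters higher and 5 lower, and it lay between -0.01 and 0.19 under other filters and scalings. Under the lenient cell filter the intervals of *Csf2rb* in M-MDSC-like cells (-0.059, -0.18 to 0.059) and of *Csf2ra* in dendritic-like cells (0.11, -0.038 to 0.26) covered 0, as did that of *Csf2ra* in M-MDSC-like cells (0.07, -0.0036 to 0.14) when the 8 genes were used for clustering. Both chains were seen in the same cell after thinning in 50.9% and 56.7% of dendritic-like, 49.0% and 49.2% of M-MDSC-like and 27.9% and 28.7% of macrophage-like cells, against 0.242% and 0.104% of tumor cell-like cells.

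Mice carry a second, near-identical beta chain gene, *Csf2rb2*, which serves the IL-3 receptor and lies beside *Csf2rb* on chromosome 15. In GRCm38 *Csf2rb* spans chr15:78325752-78353847 on the plus strand and *Csf2rb2* chr15:78282507-78305721 on the minus strand. Their coding sequences, 2691 and 2637 bases long, were identical at 95.21% of 2631 aligned bases. Whether reads fitted both genes was not tested, and how the counting treated such reads is not given in the sources used here. The stretch below, coding bases 2548 to 2637 of each gene, is shown because it is the end of the *Csf2rb2* coding sequence, nearest to where a transcript end library reads, and the capitals mark the 7 bases of 90 at which the genes differ.
Csf2rb: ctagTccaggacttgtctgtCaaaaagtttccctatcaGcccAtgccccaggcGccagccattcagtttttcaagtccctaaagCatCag
Csf2rb2: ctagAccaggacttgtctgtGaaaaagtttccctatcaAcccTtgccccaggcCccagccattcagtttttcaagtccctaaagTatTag
*Csf2rb2* had 263 and 219.5 CPM in dendritic-like, 195 and 186 CPM in M-MDSC-like, 116 and 131 CPM in macrophage-like and 104 and 102 CPM in endothelial-like cells, these 4 classes in the same order as for *Csf2rb*. In mast-like cells *Csf2rb2* was at 853 and 1608 CPM on 25 and 90 counts, its highest level of any class.

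*Csf3r*, the G-CSF receptor, was low in every class that passed the cell filter. M-MDSC-like cells held 50.3 CPM (44.9 to 56.3) and 32.6 CPM (28.0 to 37.8), and macrophage-like cells 33.3 CPM (30.6 to 36.1) and 48.0 CPM (44.9 to 51.4). Dendritic-like cells held 5.08 and 8.61 CPM, and tumor cell-like cells 0.312 and 0.674 CPM. The M-MDSC-like and macrophage-like levels overlapped across libraries and could not be ordered. After thinning, 7.21% and 5.25% of M-MDSC-like and 4.99% and 6.65% of macrophage-like cells had a *Csf3r* UMI (17.6% and 12.03%, and 16.0% and 19.5%, without thinning).

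The highest *Csf3r* level in a cluster was 1335 CPM, in 13 cells of the wild-type library that clustered with the M-MDSC-like cells. They were led by *S100a8*, *S100a9*, *Retnlg* and *Ngp*, neutrophil and granulocyte precursor genes. They held 32 *Csf3r* and 13 *Csf1* UMIs, the latter at 542 CPM, with *Csf1r* at 83.4 CPM. These 13 cells also scored 0.548 for the tumor profile along the chromosomes, where 0.4 or more counted as mixed. Their tumor markers summed to 83.4 CPM, against 15.6 to 23.0 CPM in the M-MDSC-like clusters of 345 or more cells. The part of tumor RNA in their *Csf1* counts was not tested. Among the larger M-MDSC-like clusters *Csf3r* was highest in the *Chil3*, *Plac8* and *Slfn4* led cluster (92.2 CPM). It was lowest in the *Cdh1*, *Htr7* and *H2afx* led cluster (25.4 CPM), which took no name by its own markers. Among macrophage-like clusters *Csf3r* was highest in the *Cd300e*, *Fcrl5* and *Fpr2* led cluster (67.2 CPM).

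In the knockout library *Csf3r* was lower in M-MDSC-like cells by 0.63 (log2 ratio -0.63, -0.90 to -0.35), in 4 of 4 measured clusters, and higher in macrophage-like cells by 0.53 (0.38 to 0.69), in 7 of 9 measured clusters. The sum of the 10 neutrophil markers was lower in M-MDSC-like cells as well. All 10 markers had counts in M-MDSC-like cells of the wild-type library (sum 1530 CPM) and 8 of 10 in the knockout library (1227 CPM), where *G0s2* and *Ly6g* were at 0. The sum is not particular to neutrophils. The list includes *Il1r2*, a leading gene of the M-MDSC-like class, and tumor cell-like cells reached 540 and 548 CPM of the same markers. Without droplets that carried at least 5 of the 10 markers the M-MDSC-like ratio was -0.51, and with a more lenient cell filter it was -0.29 with an interval of -0.80 to 0.20 that left the direction undetermined. In macrophage-like cells the sums were 358 and 375 CPM.

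Droplets with at least 5 of the 10 neutrophil markers were rare. The cell filter kept 15 in the wild-type library, with 30 *Csf3r* UMIs (371 CPM, 251 to 530), and 0 in the knockout library. It removed 8 and 4, with a median of 825 and 814 UMIs. Neutrophils are known to carry little RNA, and the level of the G-CSF receptor in them rests on few droplets in both libraries.

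**Figure D3:**
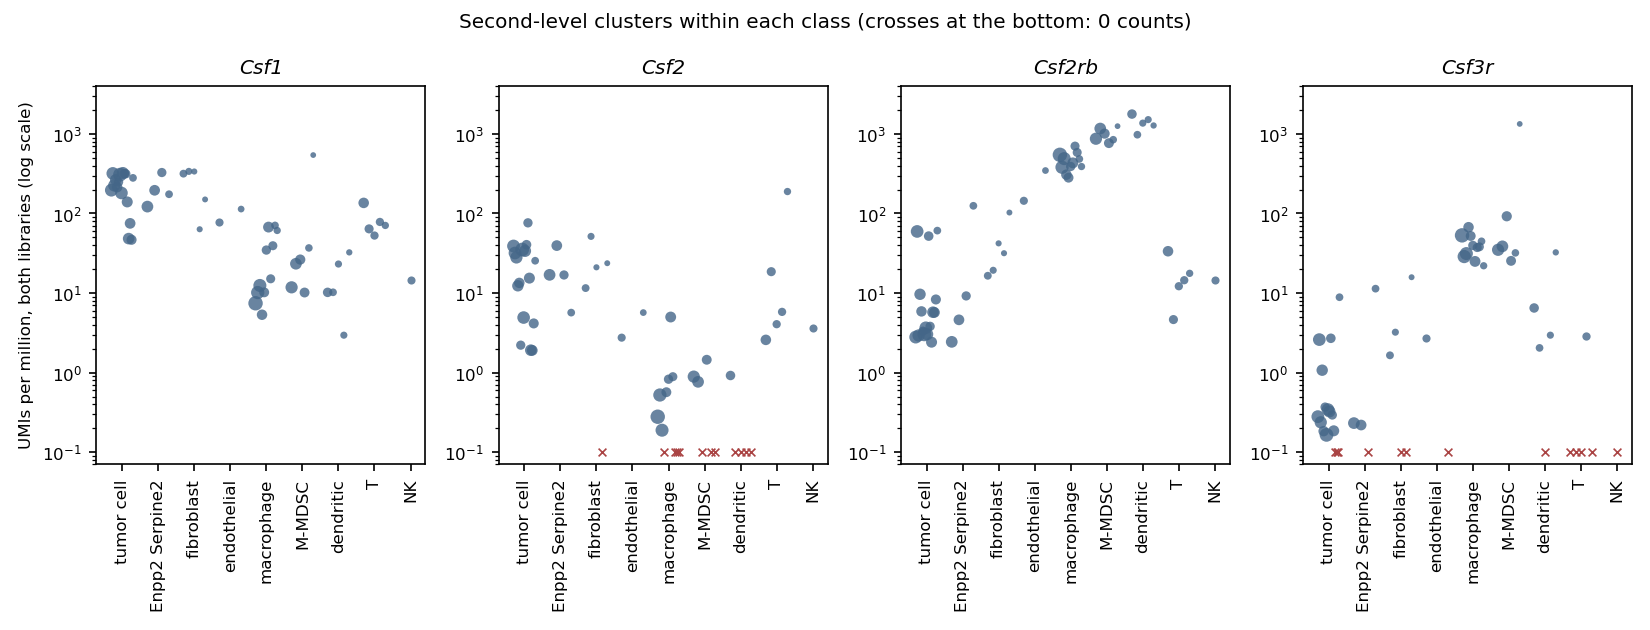
Level of *Csf1*, *Csf2*, *Csf2rb* and *Csf3r* (y axis, CPM on a log scale) in the single clusters of each class (x axis), where a point is 1 cluster of both libraries together and its size grows with the number of cells, and crosses mark clusters with 0 counts. *Csf2* spans 1.90 to 76.2 CPM across tumor cell-like clusters, and in *Csf3r* 13 cells with neutrophil genes stand at 1335 CPM above the other M-MDSC-like clusters.

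Between the genotypes a gene counted as different when it had at least 20 counts over both libraries of a class and differed at least 2-fold either way. In tumor cell-like cells this held for 2 of the 8 genes, *Csf3* (lower) and *Csf3r* (higher, on 17 and 25 counts), against 3.01% of all genes measured there. In the *Enpp2* *Serpine2* cells it held for 2 of 7, *Csf2rb* (99 and 49 counts, with 29 of the 99 in 1 cell) and *Csf3*, both lower, against 8.32%. The 3 measured clusters of this group gave *Csf2rb* log2 ratios of -0.87 to -0.75, inside 2-fold. In fibroblast-like cells *Csf2ra* of 6 genes with a ratio differed (higher, 24 and 46 counts) beside the 0 and 40 counts of *Csf3*, against 8.12%. Of the 46 *Csf2ra* counts 9 lay in 1 cell, the macrophage markers summed to 1000 and 1324 CPM in fibroblast-like cells, and 49 of the 70 counts lay in the 17 cells with the sum of 7583 CPM, and the part of these markers in the ratio was not tested. The difference also held in endothelial-like cells *Csf1r* and *Csf3* of 5 genes, both lower, against 6.89%.

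In each myeloid class 0 or 1 of the genes passed, numbers too small to tell apart from the shares over all genes. In macrophage-like cells *Csf2* alone of 8 passed, on 14 and 6 counts with 5 of the 14 in 1 cell, against 2.99% of all genes, and none of 5 passed in M-MDSC-like cells (2.39% of all genes) and none of 4 in dendritic-like cells (4.56%). In T-like cells 3 of 5 passed, *Csf1r* (20 and 8 counts), *Csf2* (35 and 23) and *Csf2rb* (35 and 20), all lower in the knockout library, against 3.65% of all genes. *Csf2* there was inside 2-fold under a strict cell filter, without doublets, at a higher clustering resolution and as a mean over cells (log2 ratios of -0.83 to -0.71). The macrophage markers in T-like cells summed to 211 and 187 CPM, with *Mrc1*, *Trem2* and *Mertk* at 0 in the knockout library, and 14 and 11 of the *Csf2rb* counts lay in 1 cell each, and the part of either in the T-like ratios was not tested. In NK-like cells none of the 8 genes reached 20 counts, where 7.83% of the genes measured differed 2-fold. Receptor ratios in macrophage-like, M-MDSC-like and dendritic-like cells stayed within 2-fold in every case with 20 counts. Among the 2-fold differences that of *Csf3* in tumor cell-like cells rested on 300 and 75 counts in 202 and 65 cells. That of *Csf2rb* in the *Enpp2* *Serpine2* cells rested on 99 and 49 counts, and the others on fewer.

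**Figure D4:**
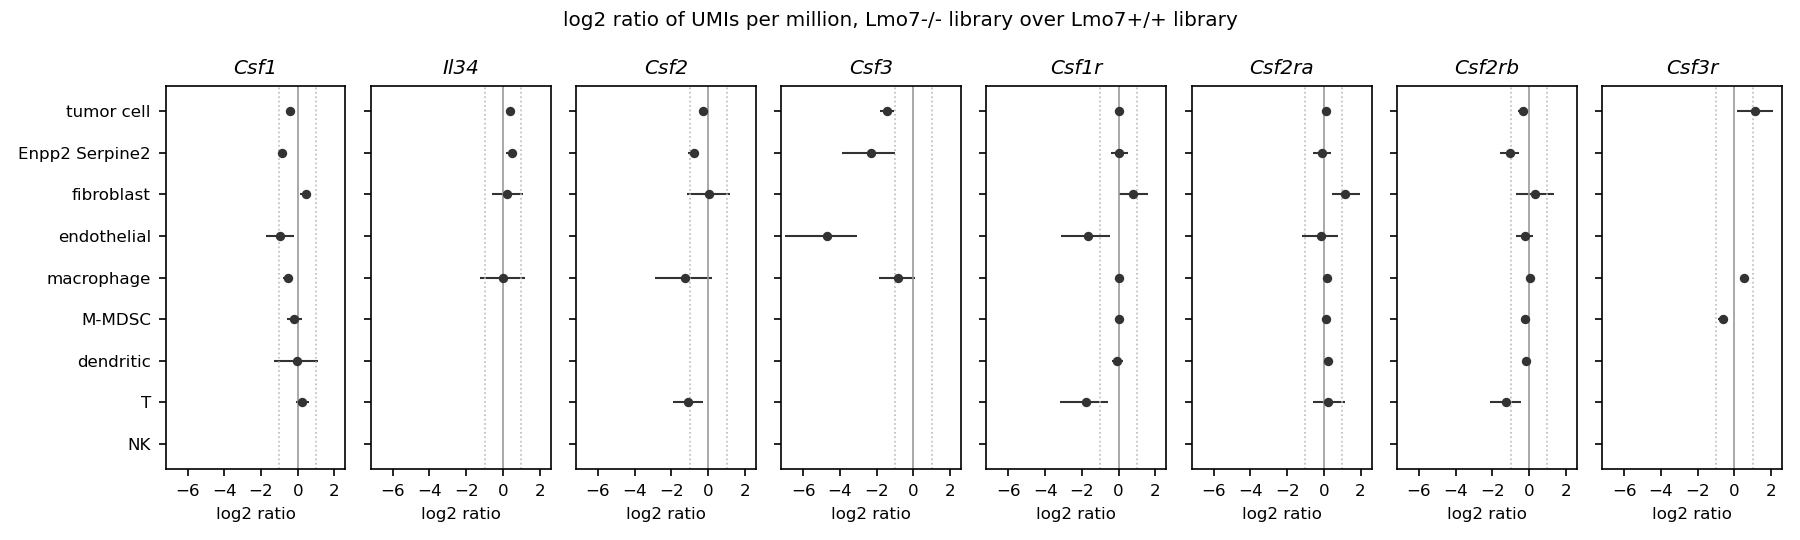
Log2 ratio of the *Lmo7*-/- over the wild-type library (x axis) for each gene in each cell class (y axis), with bars for the exact 95% interval of the split of counts and lines at a 2-fold difference. The points of *Csf1r*, *Csf2ra* and *Csf2rb* in macrophage-like, M-MDSC-like and dendritic-like cells lie between -0.21 and 0.21, and *Csf3* in endothelial-like cells lies at -4.68.

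Genes around these receptors were read from 7 lists with 55 genes. The list of CSF1R signalling and lineage regulators held 12 genes, and 5 of them, among them *Spi1*, the lineage factor PU.1, and the adaptor gene *Tyrobp*, were highest in macrophage-like cells. None of the 12 differed 2-fold in macrophage-like or M-MDSC-like cells, with medians of 0.03 and -0.09 against -0.12 and -0.04 over all genes. In fibroblast-like cells *Ptpn6* was higher in the knockout library (12.3 and 27.2 CPM, on 8 and 15 counts). Of the other IL-34 binding partners *Trem2* was a macrophage-like gene (180.4 CPM over both libraries), *Sdc1* was highest in fibroblast-like cells (124 CPM), and *Ptprz1* had 1 count among tumor cell-like cells. Of the 5 other cytokines and receptors of the beta chains, *Il3* and *Il5* were almost absent, with 1 *Il5* count in tumor cell-like and 1 in *Enpp2* *Serpine2* cells.

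Of the 7 JAK-STAT transducers, *Jak2*, the kinase bound to the beta common chain, was highest in dendritic-like cells (237 CPM), where *Csf2rb* was highest as well, and *Stat5a* and *Stat5b* were highest in T-like cells (73.3 and 94.6 CPM). Of the 9 STAT5 and GM-CSF response genes, 5 were highest in dendritic-like cells. *Ccl17*, a chemokine gene of dendritic cells known to respond to GM-CSF, was higher there in the knockout library (92.8 and 221 CPM, log2 ratio 1.25, 0.92 to 1.58), *Ccl22* was higher in macrophage-like cells on 13 and 31 counts, and *Osm* was lower in T-like cells on 22 and 14 counts. The median of the 9 genes in dendritic-like cells was 0.11, against -0.06 over all genes.

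The 12 G-CSF response and granulocyte genes included *S100a8*, *S100a9* and *Retnlg*, which led the 13 cells with neutrophil genes. In M-MDSC-like cells 3 of the 8 with 20 counts were lower in the knockout library, and none was higher, against 2.39% of all genes past 2-fold there. They were the same *S100a8* (310 and 14 counts), *S100a9* (260 and 2 counts) and *Retnlg* (59 and 2 counts). With 2 counts in the knockout library, *S100a9* and *Retnlg* could reach 20 counts only by being lower there. The 13 cells were all from the wild-type library, and their part in these 3 ratios was not tested. The number of genes past 2-fold is therefore no result about the list. Of the 7 inducers of colony-stimulating factor transcription, *Il1b* was highest in M-MDSC-like (4690 CPM) and macrophage-like cells (3346 CPM) and differed 2-fold in fibroblast-like cells (165 and 428 CPM, 1.38, 1.04 to 1.72). *Il1a* was higher in fibroblast-like cells on 9 and 20 counts. The macrophage markers summed to 1000 and 1324 CPM in those cells, and their part in these ratios was not tested. *Il17a* was lower in T-like cells of the knockout library (62 and 11 counts, -2.97, -4.04 to -2.03), the class in which 32 of 58 *Csf2* counts lay in the *Il17a* led cluster.

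Other 2-fold differences in these lists were scattered over classes. In T-like cells *Tyrobp* was lower (41.4 and 19.5 CPM) and *Sh3bp2* (4.77 and 12.6 CPM) and *Il1r2*, the decoy receptor of interleukin 1 (74.8 and 154 CPM), were higher. In dendritic-like cells *Trem2* was lower (log2 ratio -1.02) and *Il1a* higher (1.57), in endothelial-like cells *Ptpn6* was lower (-1.41), and in tumor cell-like cells *S100a9* was lower on 27 and 1 counts. In the *Enpp2* *Serpine2* cells 7 genes were lower, *Socs2*, *Ccnd2*, *Osm*, *S100a8*, *Il1r2*, *Il1a* and *Tnf*, and none was higher, where 828 of all 11856 genes measured were 2-fold lower and 159 higher.

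Genes with the most similar pattern were found by Pearson correlation of log2(CPM + 1) over 18 points, the 9 classes in each library, among 12293 genes. These points share libraries and the correlations are a description. *Csf1r* was most like *Cybb*, *Cd14* and *Lst1* (r = 0.994, 0.983 and 0.982), genes of phagocytes, and *Csf2ra* most like *Il1b*, *Ly86* and *Mpeg1* (0.982, 0.977 and 0.975). *Csf2rb* was most like *Pira2*, *Plekho2* and *Rasa4* (0.966, 0.965 and 0.964) and *Csf3r* most like *Sirpb1b*, *Gm5150* and *P2ry6* (0.975, 0.969 and 0.956). Of the ligands, *Csf1* was most like *Rcn1*, *Lrig1* and *Ryk* (0.967, 0.963 and 0.958) and *Il34* most like *Msx1*, *Flrt2* and *Prkd1* (0.986, 0.982 and 0.981), while the best match of *Csf2*, *Dap*, reached 0.910 and that of *Csf3*, *Hcn2*, 0.854.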

How the data were processed

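Per the labels, tumor cells were captured on the 10x Chromium platform (the barcodes in the files have 24 bases), 1 library per host genotype, and the pair of libraries was pooled for sequencing. The authors deposited raw UMI counts per gene and droplet, and the submitters' processing notes name Cell Ranger 2.1.1 and mm10. The authors' filter values are not given in the sources used here. The tables held 16208 droplets with 98582479 UMIs (*Lmo7*+/+) and 15163 droplets with 80648345 UMIs (*Lmo7*-/-). Droplets were kept from 500 genes and 1000 UMIs upward and up to 15% of UMIs from mitochondrial genes, with a median of 2011 and 1894.5 genes. Doublets were kept. Scrublet, as run in scanpy, marked 2.82% and 2.37% of cells.

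Counts were log-normalised, and 2000 variable genes without the 8 genes and *Csf2rb2* gave 30 principal components and a graph of 20 neighbours, which the Louvain method at resolution 0.5 split into 16 clusters and 68 second-level clusters (scanpy 1.11.5, igraph 0.11.9). Clusters took "X-like" names from marker lists. The limits for naming, the treatment of the *Enpp2* *Serpine2* cells as a group of their own, the minimum of 5 of 10 neutrophil markers and 3 of the alternatives (without those droplets, without the cell with the most UMIs of a gene, and without barcodes found in both libraries) were set after seeing the data. The genes and lists were chosen with earlier results of these data known.

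UMIs were summed per class and library and given per 1000000 UMIs (CPM) with exact Poisson 95% intervals. Ratios between libraries were given at 20 or more counts with the exact binomial (Clopper-Pearson) interval of the split of counts. Shares of cells were taken after thinning cells to 1500 UMIs and leaving out shallower cells. All intervals cover counting error only. No test was run. The text names all 8 genes, *Csf2rb2*, genes of the lists past 2-fold in the class described, and for each of the 8 the 3 genes most alike in pattern among genes with 200 or more counts. Some genes of the lists are not reported here. Gene positions and coding sequences came from GENCODE M21 on GRCm38, which held 32235 of 32285 gene IDs. On Poisson counts simulated from the tumor cell-like, macrophage-like and T-like sums, with 200 genes changed, the intervals covered the true ratio for 95.66% of 14005, 95.6% of 12059 and 96.28% of 8788 genes. The simulated counts followed the model that the interval assumes, without UMIs gathered in single cells and without variation between libraries. They therefore check the calculation only, not how well the intervals hold for these data. Software was Python 3.11.15, numpy 2.4.6, scipy 1.17.1, pandas 2.3.3, scikit-learn 1.9.0, matplotlib 3.10.9, R 4.3.3 and edgeR 4.0.16 (TMM alternative).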

Additional observations from a re-analysis of the deposited data

Results flagged for a closer look

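For 4 genes the ratio between the libraries lay on opposite sides of 0 in a pair of classes, with counting intervals that left out 0 in both. With 1 library per genotype these differences between classes were not tested. *Csf1* was higher in fibroblast-like cells of the knockout library (log2 ratio 0.43) and lower in endothelial-like cells (-0.95), and the first value was 0.074 without 1 cell. The endothelial-like value was -0.61 (-1.29 to 0.046) under a lenient and -0.65 (-1.45 to 0.11) under a strict cell filter, intervals that covered 0. *Csf1r* was higher in fibroblast-like cells (0.80, 25 and 37 counts) and lower in T-like cells (-1.80, 20 and 8 counts). The macrophage markers summed to 1000 and 1324 CPM in the fibroblast-like and to 211 and 187 CPM in the T-like cells, and their part in the ratios was not tested. *Csf2rb* was higher in macrophage-like cells (0.078) and lower in T-like cells (-1.28). *Csf3r* was higher in tumor cell-like cells (1.11, 17 and 25 counts) and lower in M-MDSC-like cells (-0.63).

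*Csf3r* was also high in droplets that the cell filter had removed. The 8 removed droplets of the wild-type library with at least 5 of 10 neutrophil markers held 25 *Csf3r* UMIs, or 3811 CPM (2466 to 5626), and the 4 of the knockout library held 8 UMIs, or 2514 CPM (1085 to 4954). Other removed droplets held 8.63 and 9.81 CPM.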

How the results depend on the processing

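Some ratios near 0 turned direction. *Il34* in fibroblast-like cells (0.24) was -0.99 as a mean over cells and -0.17 without the cell with the most UMIs, *Csf2* in fibroblast-like cells (0.029) was -1.06 without that cell and -0.17 without shared barcodes, *Csf1r* in M-MDSC-like cells (0.013) was -0.0016 with 20 principal components and -0.0015 with the 8 genes used for clustering, *Csf1r* in dendritic-like cells (-0.07) was 0.00054 without the cell with the most UMIs, and *Csf2rb* in macrophage-like cells (0.08) turned under the lenient filter below. The 2-fold line was passed by *Csf1* in endothelial-like cells (-0.95) at -1.36 and *Csf3r* in M-MDSC-like cells at -1.03 as means over cells, and was no longer passed by *Csf2* in T-like cells (-1.08) at -0.83 under a strict filter, -0.71 without doublets, -0.76 at resolution 1, -0.71 as a mean over cells and -0.48 without 1 cell. *Csf1* in tumor cell-like cells (-0.40) was -0.46 at a clustering resolution of 1, -0.45 with 20 principal components and -0.45 with the 8 genes used for clustering. *Csf1* in fibroblast-like cells (0.43) was 0.074 without the cell with the most UMIs. A lenient cell filter (200 genes, 500 UMIs, 25% mitochondrial) gave -0.64 for *Csf2* in tumor cell-like cells (-0.29), 0.058 for *Csf1r* (0.02), -0.0074 for *Csf2rb* (0.08) and 0.29 for *Csf3r* (0.53) in macrophage-like cells, and 0.16 for *Csf2ra* (0.10), -0.059 for *Csf2rb* (-0.21) and -0.29 for *Csf3r* (-0.63) in M-MDSC-like cells. A strict filter (1000 genes, 2000 UMIs, 10% mitochondrial) gave -0.67 for *Csf2*, and 0.17 for *Csf2ra* and -0.34 for *Csf3r* in M-MDSC-like cells. Without doublets *Csf2* was -0.63, *Csf2ra* and *Csf2rb* in M-MDSC-like cells 0.21 and -0.13, and *Csf2rb* in macrophage-like cells 0.015. With 20 principal components *Csf2ra* and *Csf2rb* in M-MDSC-like cells were 0.18 and -0.15, and at resolution 1 *Csf1r* in macrophage-like cells was 0.057. TMM scaling gave 0.13, 0.29 and 0.19 for *Csf1r*, *Csf2ra* and *Csf2rb* in macrophage-like cells. As a mean over cells the values were -0.44 for *Csf2* and 0.24 for *Il34* in tumor cell-like cells, and 0.14 for *Csf2ra* and 0.0099 for *Csf2rb* in macrophage-like cells. Except for the values without 1 cell, the cause of these moves was not tested. *Csf3r* in droplets with neutrophil markers of the *Lmo7*+/+ library (371 CPM) was 630 CPM over all deposited droplets and 1702 CPM in neutrophil-like clusters under the lenient filter. Of 23 ratios, 23 stayed within their counting error without shared barcodes and without the 10 most counted genes, and 16 did so under the lenient filter, in which the M-MDSC-like class held 556 and 396 cells. The leading class stayed the same for 7 of 8 genes under the lenient filter (*Csf1r* led in M-MDSC-like cells) and the strict filter (*Csf3r* led in macrophage-like cells), and for 8 of 8 in 4 other alternatives. Few counts limit the NK-like, mast-like, endothelial-like and fibroblast-like values. No paired analysis was possible because each genotype has 1 library, and no library could be left out for the same reason.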

Other observations

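A group of 46 unnamed cells led by immunoglobulin genes, *Jchain* and *Siglech* held *Csf2rb* at 340 CPM and *Csf2rb2* at 404 CPM, with *Csf1r* at 7.08 CPM. For *Csf2rb2* this was the highest level of any cluster but the mast-like one. Of 3 unnamed clusters of 52 to 85 cells with high macrophage marker sums, those led by *Folr2* and *Lyve1* had *Csf1r* at 1043 and 1252 CPM with *Csf2ra* at 479 and 403 CPM, and the one led by *Retnla* and *Lyz1* had 550.4 CPM of *Csf1r* with 1059 CPM of *Csf2ra*. These cells were named in no class.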
